A study of Musca domestica with 10 samples.

Results

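The transcripts described here were abundant in the house fly embryo before cellularisation and much scarcer directly after it. Membership was set by measured values in CPM, a gene's share of all gene reads of its library scaled to 1000000. A gene needed at least 10 CPM in both syncytial blastoderm (SB) libraries, and less than 0.25 of the lower of these values in both cellular blastoderm (CB) libraries. It also needed at least 1 CPM in 1 or both dorsal closure (DC) libraries, and less than 0.5 of the lower SB value in 1 or both of them. Of 15803 annotated genes, 6015 met the SB clause, 246 met the SB and CB clauses, and 169 met all of them. The other genes with the early drop comprised 20 that were below 1 CPM in both DC libraries and 57 that had both DC libraries at 0.5 of the lower SB value or more. The remaining 5769 genes at 10 CPM or more in SB lacked the drop.

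An insect egg is loaded by the mother with RNA and protein that direct the first nuclear divisions, while the embryo's own genome is largely silent. Maternal RNA is then degraded, in Drosophila first by maternal RNA-binding proteins and deadenylases and later with factors made by the embryo, while zygotic transcription begins. This handover, the maternal-to-zygotic transition, overlaps with cellularisation, and some transcripts that are removed are later made again by the embryo.

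RNA was sequenced from whole Musca domestica embryos at 5 stages. In SB the nuclei share 1 cytoplasm, in CB they have been enclosed by membranes, the gastrula forms the germ layers, germ band extension (GBE) lengthens the trunk, and at DC the epidermis covers the dorsal side. Each stage had 2 biological replicates of 100 pooled embryos, with no treatment or genotype named in the labels. Gene reads ran from 16288442 in SB replicate 1 to 83604709 in CB replicate 1, so that 3 reads equal 0.184 CPM in the shallowest library and 0.0359 to 0.0706 CPM in the others. The count files name genes by MDOA identifiers alone, and 0 of them matched the reference gene table. No gene name, role or sequence is therefore given, and no cell type marker was checked.

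The label of these transcripts as maternal was not tested, because SB is the first stage analysed here. The label of cleared held in part. In CB the median transcript stood at 12.6% of its SB mean (quartiles 9.79% and 15.4%, range 0.766% to 22.6%). Of the 169, 1 (MDOA006552) was below 1 CPM in both CB libraries, and 58 were still at 10 CPM or more in both. These values belong to the rule and are given as a description. CPM is a share of the gene reads, so it does not show how many molecules an embryo holds. In whole embryos, fewer cells with a transcript and less of it per cell cannot be told apart.

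The starting levels spanned a wide range. SB means ran from 12 to 905 CPM with a median of 63.6 CPM. Of the members, 7 had SB means from 10 to 20 CPM, 51 from 20 to 50, 54 from 50 to 100, 34 from 100 to 200 and 23 at 200 or more. Both SB libraries differed by a median factor of 1.26, and 10 transcripts differed by 2-fold or more, up to 5.1-fold for MDOA009989 (63 and 12.4 CPM). Together the members took 1.98% and 1.91% of gene reads in SB (replicates 1 and 2). They took 0.212% and 0.278% in CB, 0.216% and 0.171% in the gastrula, and 0.255% and 0.276% in GBE. Their share was 0.464% in DC replicate 1 and 0.272% in DC replicate 2.

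**Figure D1:**
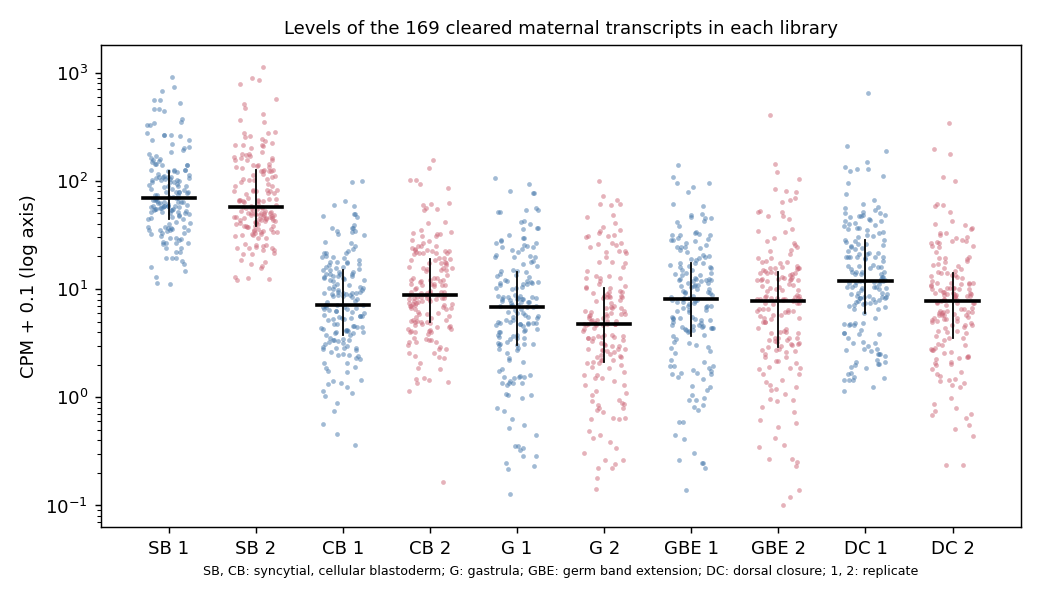
Level of each of the 169 transcripts (points, CPM + 0.1, log axis) in each of the 10 libraries, blue for replicate 1 and red for replicate 2; thick bars are medians and thin lines span the quartiles. The medians before the 0.1 is added are 68.8 and 56.8 CPM in SB, and between 4.67 and 11.8 CPM in the 8 later libraries.

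The 2 members with the highest SB means had unlike courses. MDOA011525 had 672 and 1137 CPM in SB (replicates 1 and 2, in this order throughout), 33.7 and 156 in CB, 1.32 and 2.88 in the gastrula, 1.63 and 15.2 in GBE, and 65.7 and 58.8 in DC. Its lowest level came after cellularisation, and both DC libraries lay above all gastrula and GBE libraries. MDOA014409 had 908 and 894 CPM in SB, 49.6 and 101 in CB, 36.9 and 31.7 in the gastrula, 59 and 121 in GBE, and 646 and 339 in DC. Its lowest value was thus 31.7 CPM, and it rose from GBE to DC by 2.33 ± 0.61 on the log2 scale (SE, edgeR quasi-likelihood test, adjusted p = 0.034). The call was lost without SB replicate 1 or 2 (adjusted p = 0.055 each in edgeR), gastrula replicate 1 (0.057), GBE replicate 1 (0.15) or DC replicate 1 (0.13), and the log2 value was 3.39 without GBE replicate 2.

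The largest relative drops by CB were those of MDOA006552 and MDOA008702. MDOA006552 had 22 and 33.4 CPM in SB, 0.359 and 0.0656 in CB, 1.44 and 3.2 in the gastrula, 1.84 and 3.85 in GBE, and 8.5 and 9.18 in DC. CB was its low point, and every later library was higher. The SB level was 61.4 times the CB level in replicate 1 and 509 times in replicate 2, where the CB value rests on 3 reads (95% exact counting interval 174 to 2472). MDOA008702 had 108 and 82.6 CPM in SB, 1.24 and 1.27 in CB, 0.145 and 0.162 in the gastrula, 0.0405 and 0.133 in GBE, and 40.2 and 4.55 in DC. Its gastrula and GBE values rest on 3 to 11 reads each, and both DC libraries lay above them.

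At the edge of the rule, members and other genes lay close together. The members nearest the limit, MDOA008519 and MDOA014127, had a higher CB value of 0.249656 and 0.248426 of the lower SB value. The nearest genes outside, MDOA008009 and MDOA008047, stood at 0.250002 and 0.250149. Between 0.2 and 0.25 lay 58 members, and between 0.25 and 0.3 lay 73 genes that met the other clauses. Membership also moved with the scaling: with TMM-scaled CPM (library sizes adjusted by edgeR for composition) 87 genes met the rule, all 87 among the 169. With 1 library standing for a stage, 261 and 419 genes met it without SB replicate 1 and 2, and 263 and 430 without CB replicate 1 and 2.

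Read in the other replicate series, the early drop was seen in part. Of 931 genes that met the SB and CB clauses in replicate 1 alone, 411 (44.1%) were below 0.25 of the SB level in replicate 2 too, where 7.73% of all genes at 10 CPM or more in SB were. Of 475 genes chosen in replicate 2 alone, 384 (80.8%) were below it in replicate 1, where 14.8% of such genes were. In the other series 836 of the 931 (89.8%) and 468 of the 475 (98.5%) were lower in CB. Of all genes at 10 CPM or more in SB, 65.3% (replicate 2) and 66.4% (replicate 1) were. Chosen genes needed 10 CPM in SB of the choosing replicate only, and the genes beside them in the replicate read. The sets are thus not fully alike.

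The contrast that the rule uses gave 37 of 169 members called lower in edgeR, against 0.452% of all 11286 tested genes. With the replicate number as a block 133 were called, against 3.63%, and DESeq2 called 152, against 4%. In edgeR 0 were called without SB replicate 1, SB replicate 2, CB replicate 1 or CB replicate 2, and 8 and 9 without gastrula replicate 1 and 2. Nothing is read from these counts, since the same libraries chose the members.

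The gastrula and GBE libraries had no part in the rule, and in them the transcripts were still low against SB. The SB libraries did choose the members, so the comparisons with SB are a description. All 169 had both gastrula libraries below both SB libraries, as did 33.6% of the tested genes and 50.1% of the 5769 genes without the drop. In GBE it was 166 of 169, against 31.4% of the tested genes and 48.8% of the 5769. The median member stood at 8.58% of its SB mean in the gastrula (quartiles 3.87% and 16%) and at 12.8% in GBE (quartiles 5.53% and 22.1%). Members under 1% of the SB mean numbered 12 in the gastrula and 11 in GBE, and those at 25% or more numbered 10 and 30. For the 5769 genes, the median share of the same-numbered SB library was 64.8% and 61.9% in the gastrula, and 67.9% and 50.5% in GBE.

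In edgeR 105 of 169 members were called lower in the gastrula than in SB, against 4.94% of all tested genes, and 0 were called higher, against 6.32%. In GBE 103 were called lower than in SB, against 5.54%, and 0 higher, against 9.37%. With the replicate block the lower calls were 155 in the gastrula (background 13.5%) and 144 in GBE (background 14.5%). DESeq2 called 149 lower in the gastrula (background 10.5%) and 134 in GBE (background 9.96%). Single libraries moved the edgeR counts, and the shares of all tested genes called in those fits are not given here. For the gastrula 35 and 32 were called without SB replicate 1 and 2, and 21 and 18 without gastrula replicate 1 and 2. For GBE 38 and 31 were called without SB replicate 1 and 2, and 52 and 40 without GBE replicate 1 and 2. The median fitted log2 fold change of members was -3.01 in the gastrula and -2.57 in GBE, where that of all tested genes was 0.24 and 0.23. SB libraries also chose the members, so these contrasts are a description.

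In 3 members the GBE libraries overlapped those of SB. MDOA005792 had 125 and 210 CPM in SB, 12.4 and 22.7 in CB, 56.6 and 101 in the gastrula, 87.7 and 403 in GBE, and 36.9 and 176 in DC. Replicate 2 was the higher of the pair at each stage, and in GBE it lay above both SB libraries. MDOA013797 had 126 and 123 CPM in SB, 16 and 22.7 in CB, 24.8 and 24.5 in the gastrula, 48.5 and 143 in GBE, and 25.9 and 195 in DC. Here too GBE replicate 2 lay above both SB libraries, and GBE replicate 1 below them. In MDOA009989, chosen after its values were seen, GBE replicate 1 (12.4 CPM) reached the low SB value of replicate 2.

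**Figure D2:**
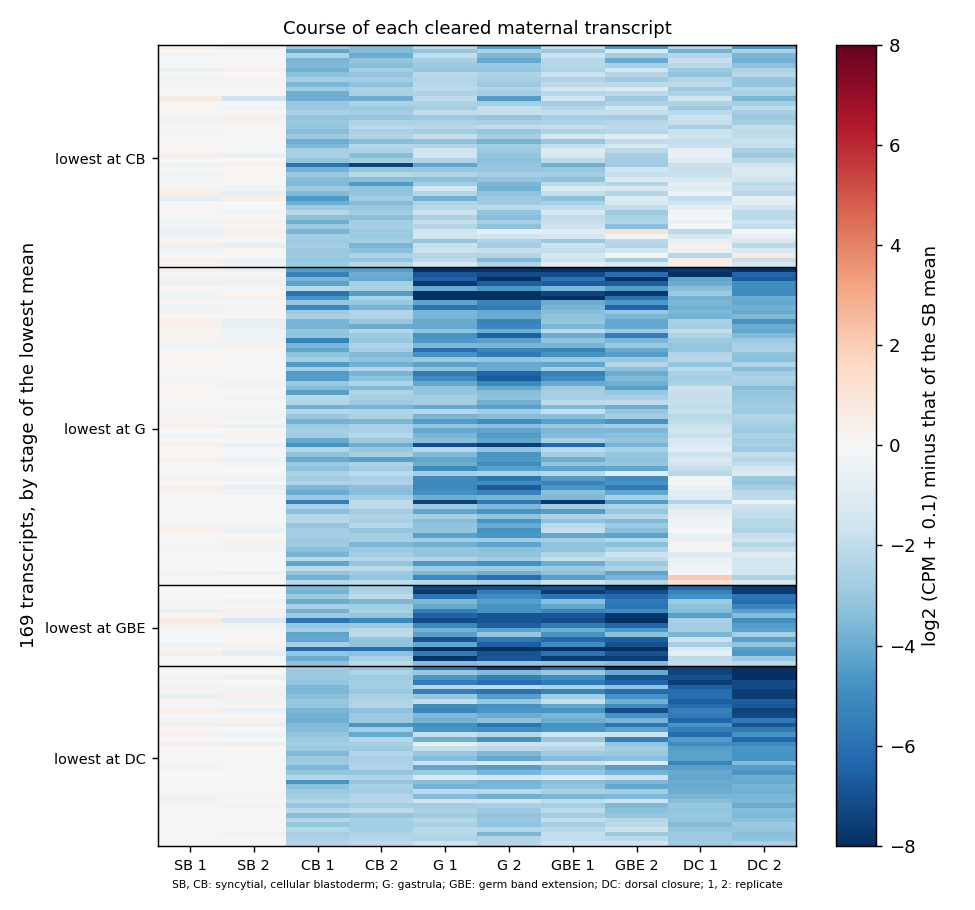
Each row is 1 of the 169 transcripts and each column a library; colour is log2 (CPM + 0.1) minus that of the transcript's SB mean. Rows are grouped by the stage of the lowest mean: 47 in CB, 67 in the gastrula, 17 in GBE and 38 in DC.

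The transcripts reached their lowest level at different times. The lowest mean was that of the gastrula in 67 members (39.6%), of CB in 47 (27.8%), of DC in 38 (22.5%) and of GBE in 17 (10.1%). Among the 5769 genes without the drop, DC was the lowest of these 4 stages in 58.9%, the gastrula in 18.6%, GBE in 12.8% and CB in 9.72%. The rule held the CB level low and bounded that of DC, so these shares are not independent of it. In 102 of the 169 members both replicate series had the same lowest stage.

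From CB to the gastrula the members split. In 82 of 169 both gastrula libraries lay below both CB libraries, against 21.2% of all tested genes, and in 26 (15.4%) both lay above, against 18.9%. Of the 5769 genes without the drop 32.1% lay below and 7.73% above. With TMM-scaled CPM it was 77 below, against 17.6%, and 36 above, against 22.9%. In the 82, the median went from 8.41 and 9.4 CPM in CB to 3.25 and 2.25 CPM in the gastrula. In the 26, it went from 7.89 and 7.47 CPM to 15.5 and 14.9 CPM. The CB libraries were also used by the rule.

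No member passed edgeR's test at this step in either direction (background 0% both ways). At an unadjusted p under 0.05 there were 39 lower, against 5.34% of all genes, and 8 higher, against 7.27%. With the replicate block 17 were called lower, against 2.81%, and 1 higher, against 3.87%. DESeq2 called 25 lower, against 3.03%, and 5 higher, against 4.96%.

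Named members show both courses. MDOA010389 had 442 and 216 CPM in SB, 14.8 and 15.3 in CB, 0.225 and 0.142 in the gastrula, 0.351 and 0.265 in GBE, and 1.44 and 0.338 in DC. Its CB libraries lay far above all later ones. Its log2 fold change from CB to the gastrula was -6.19 ± 0.78 (SE, edgeR adjusted p = 0.075, 0.0039 with the replicate block, and 0.036 and 0.03 without DC replicate 1 and 2). For MDOA011525, whose gastrula libraries also lay below both CB libraries, it was -5.3 ± 1.28 (edgeR adjusted p = 0.12, 0.0093 with the block, 0.00019 in DESeq2). Its value was -3.76 without CB replicate 2, -6.03 without CB replicate 1 and -6.18 without gastrula replicate 2. In the other direction stood MDOA005792, at 2.36 ± 1 (edgeR adjusted p = 0.37, 0.023 with the block), the 1 member called higher with the block. It stood at 1.68 without gastrula replicate 2. MDOA011613 had 126 and 64.4 CPM in SB, 13.7 and 14.9 in CB, 54.2 and 30.6 in the gastrula, 28.3 and 11.1 in GBE, and 2.86 and 2.66 in DC. Its gastrula level lay above both neighbouring stages in each series, with a log2 fold change over CB of 1.7 ± 0.55 (edgeR adjusted p = 0.23, 0.052 with the block, 0.01 in DESeq2).

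From the gastrula to GBE, the step that shares no library with the rule, higher values were more frequent than lower ones. Both GBE libraries lay above both gastrula libraries in 60 members (35.5%) and below them in 7 (4.14%). Of all tested genes 19.2% lay above and 8.57% below, and of the 5769 genes without the drop 10.9% and 11.4%. With TMM-scaled CPM 51 members lay above and 12 below, against 15.5% and 13.5% of the tested genes and 6.64% and 19.2% of the 5769. In 100 members (59.2%) both replicate series were higher in GBE and in 21 (12.4%) both were lower. Of all tested genes 35.9% and 22.9% were, and of the 5769 28.3% and 32.2%. With TMM-scaled CPM the members numbered 81 (47.9%) and 30 (17.8%), against 18.5% and 47% of the 5769. The difference between members and other genes was not tested, and genes are not independent replicates.

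The differences at this step were small, and no single one passed edgeR's test. The median fitted log2 fold change of members was 0.27 (quartiles -0.06 and 0.66), with 0 for all tested genes and -0.17 for the 5769 genes. With each of the 10 libraries left out in turn it lay between 0.24 and 0.48. With DESeq2's size factors it was 0.4 where that of all genes was 0.1, and with total counts 0.4 where that of all genes was 0.12. In edgeR 0 of 169 members were called in either direction, with or without the replicate block, as for all genes (background 0%). At an unadjusted p under 0.05 there was 1 member higher and 1 lower, against 4.55% and 0.523% of all genes. In the blocked fit these numbers were 7 and 1, against 6.85% and 2.8%. DESeq2 called 1 member higher, against 1.51% of all genes, and 0 lower, against 0.0354%. That member, MDOA007667 (DESeq2 adjusted p = 0.049), is named after its values were seen: it had 0.423 and 0.284 CPM in the gastrula and 0.837 and 5.27 CPM in GBE.

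The replicate series differed in size at this step. The median log2 ratio of members, with 0.1 CPM added, was 0.26 in replicate 1 and 0.53 in replicate 2. In replicate 1, 7 members were 2-fold or more higher in GBE and 0 were 2-fold or more lower. In replicate 2 it was 49 and 10. Among the 5769 genes, 1.56% and 0.277% passed these limits in replicate 1, and 7.7% and 16.6% in replicate 2. Across the 169 members the ratios of both series correlated at r = 0.29, and across the 5769 genes at r = 0.39, as a description.

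The named members of this step did not pass the test. On the log2 scale MDOA013797 stood 1.88 ± 0.92 higher in GBE (SE, adjusted p = 0.99 in edgeR) and MDOA011525 1.93 ± 1.11 higher (adjusted p = 1 in edgeR). Both values depend on the GBE libraries: without GBE replicate 2 they were 0.77 and -0.60, and without GBE replicate 1 they were 2.72 and 3.02. MDOA011613 stood at -1.26 ± 0.54 (edgeR adjusted p = 0.96). MDOA015323 had 276 and 254 CPM in SB, 36.6 and 61.7 in CB, 4.6 and 8.23 in the gastrula, 4.29 and 3.39 in GBE, and 8.99 and 4.55 in DC. Its log2 fold change from the gastrula to GBE was -0.93 ± 0.54 (edgeR adjusted p = 1), and -0.18 without gastrula replicate 2. In MDOA011613 and MDOA015323 the GBE value was the lower one in each series.

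**Figure D3:**
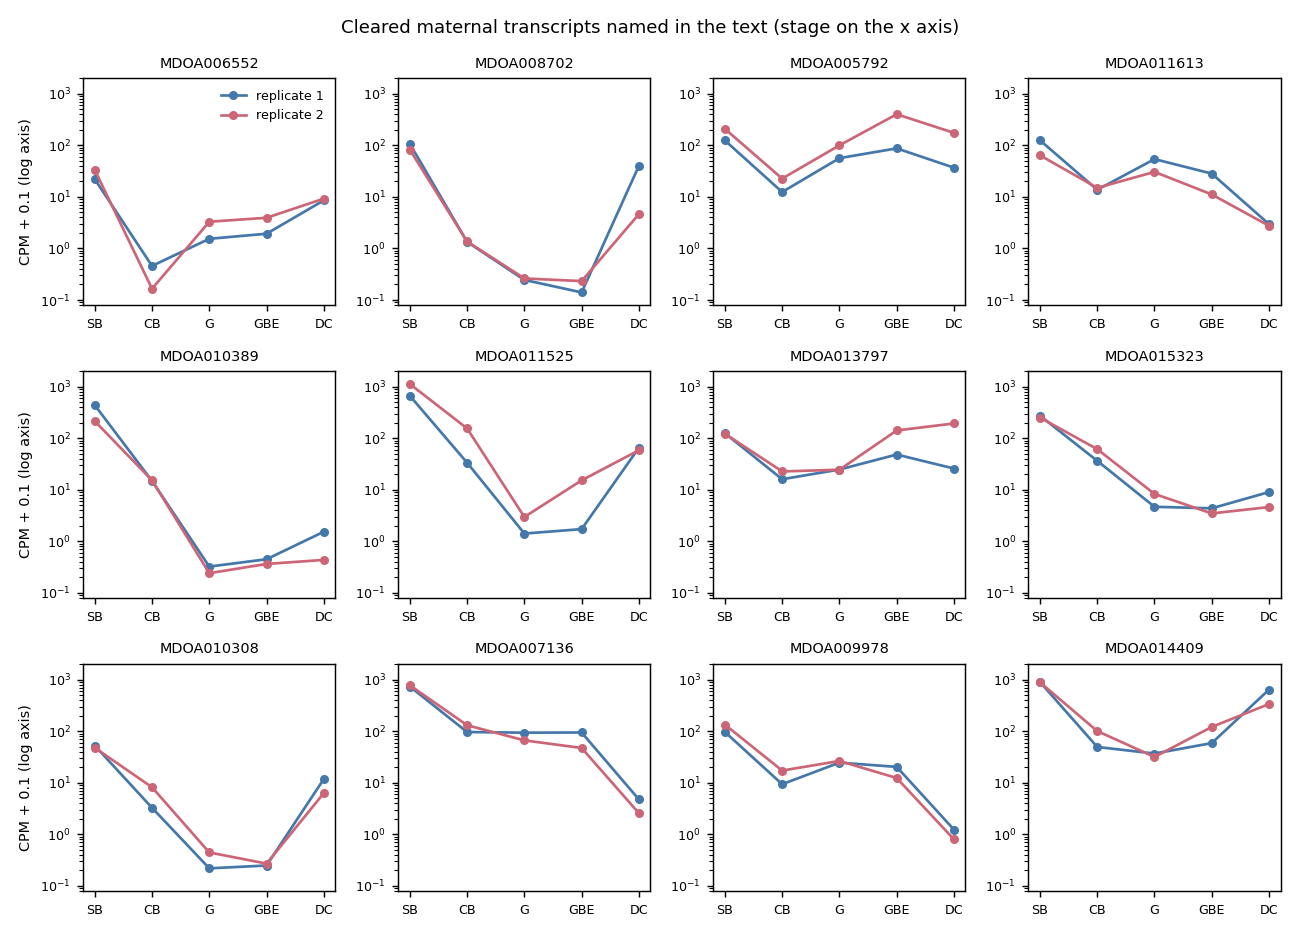
Levels of 12 members chosen by rule, as CPM + 0.1 on a log axis against stage (G is the gastrula), with 1 line per replicate series, blue for replicate 1 and red for replicate 2. MDOA008702 and MDOA010308 are lowest in the gastrula and GBE and higher in DC, while MDOA007136 and MDOA009978 are lowest in DC.

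In DC some members stood higher again and others reached their lowest level. In 62 of 169 (36.7%) both DC libraries lay above both GBE libraries, against 32.7% of all tested genes. In 34 (20.1%) both lay below, against 25.8%. Both shares were near those of all tested genes. Of the 5769 genes without the drop, 14.3% lay above and 38.3% below. The 62 had median levels of 58.4 and 48.2 CPM in SB, 4.3 and 7.1 in CB, 2.7 and 2.25 in the gastrula, 3.5 and 3.64 in GBE, and 19.6 and 9.19 in DC. The 34 had higher medians in SB, at 133 and 125 CPM, then 16.8 and 19.2 in CB, 20.2 and 17.6 in the gastrula, 19.8 and 14.9 in GBE, and 7.12 and 5.87 in DC. The rule sets a floor and a ceiling in DC, so these shares are not independent of it.

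In edgeR 18 members were called higher in DC than in GBE, against 9.6% of all genes, and 12 lower, against 7.55%. As shares of the 169 these are 10.7% and 7.1%, close to the background of this fit. Among the called rises the median log2 fold change was 3.8, and among the called falls -2.84. With the replicate block 36 (21.3%) were higher and 22 (13%) lower, against 20.1% of all genes each way. DESeq2 called 54 (32%) higher, against 19.8%, and 17 (10.1%) lower, against 10.5%. The lower share with the block and the higher share in DESeq2 were thus not close to the background. The calls higher and lower were 9 and 7 without SB replicate 1, 10 and 7 without SB replicate 2, 2 and 4 without GBE replicate 1, 9 and 7 without GBE replicate 2, and 3 and 3 without DC replicate 1. The lower calls were 6 without gastrula replicate 2, 6 without DC replicate 2 and 7 with DESeq2's size factors.

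MDOA008702 rose from GBE to DC by 7.87 ± 1.25 on the log2 scale (SE, edgeR adjusted p = 0.008). Its GBE counts were 3 and 7 reads, so the fitted size depends on the prior count. The DC level was 992 times the GBE level in replicate 1 (95% exact counting interval 339 to 4815) and 34.3 times in replicate 2. The log2 value was 5.7 without DC replicate 1, 8.82 without DC replicate 2, 7.22 without GBE replicate 1 and 9.27 without GBE replicate 2. MDOA010308 had 52.8 and 47.9 CPM in SB, 3.18 and 8.11 in CB, 0.119 and 0.345 in the gastrula, 0.148 and 0.171 in GBE, and 11.8 and 6.23 in DC. It rose by 5.73 ± 1 (edgeR adjusted p = 0.01, 0.06 without GBE replicate 1). Neither MDOA008702 nor MDOA010308 reached its SB level in a DC library. Both were below 1 CPM in GBE, and the rule asks for at least 1 CPM in 1 DC library. A higher value in that library was thus fixed by the choice of members. Both were also named for the size of this rise, so the values are a description.

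MDOA007136 had 741 and 784 CPM in SB, 96.8 and 131 in CB, 94 and 66.6 in the gastrula, 94.8 and 47.4 in GBE, and 4.66 and 2.48 in DC. From CB to GBE it lay between 94 and 96.8 CPM in replicate 1 and was lower at each step in replicate 2. From GBE to DC it fell by 4.34 on the log2 scale (SE 0.54, edgeR adjusted p = 0.0063). MDOA009978 had 97.1 and 135 CPM in SB, 9.31 and 17.2 in CB, 24.6 and 26.5 in the gastrula, 20.3 and 12.3 in GBE, and 1.13 and 0.698 in DC. It fell by 4.18 on the log2 scale (SE 0.61, edgeR adjusted p = 0.0072). In MDOA007136 and MDOA009978 the DC libraries lay below all others.

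The course into the gastrula and the course into DC were also counted together. Of the 82 members lower in the gastrula than in CB, 47 (57.3%) were higher in DC than in GBE and 8 (9.76%) were lower. Of the 26 members higher in the gastrula, 4 (15.4%) were higher in DC and 12 (46.2%) were lower. Among the genes without the drop, the 1849 lower in the gastrula were split as 27.1% higher and 30.3% lower in DC. The 446 of them higher in the gastrula were split as 8.74% and 64.3%. These steps share no library with each other, but CB and DC were both used by the rule. Its DC limits kept genes of either course out of this count. Of the 20 genes below 1 CPM in both DC libraries, 14 were lower in DC than in GBE and 1 was higher. In the gastrula 17 of these 20 were lower than in CB and 0 were higher. Of the 57 genes with a high DC level, 45 were higher in DC than in GBE and 0 were lower. The split of the members is thus not independent of the rule. It was not set against all tested genes, and the difference between the gene groups was not tested.

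In 10 members the level was below 1 CPM in both libraries of the gastrula and of GBE. Their medians were 58.4 and 49 CPM in SB, 1.97 and 4.65 in CB, 0.205 and 0.162 in the gastrula, 0.256 and 0.208 in GBE, and 5.61 and 1.69 in DC. In 8 of these 10 both DC libraries lay above both GBE libraries. The rule asks for at least 1 CPM in 1 DC library, so a higher value in that library was fixed by the choice of members.

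The DC libraries, which the rule used, were uneven for these transcripts and for the tested genes at large. Replicate 1 was the higher one in 132 of the 169. Replicate 2 was the higher one in 37 (21.9%), against 37.7% of all tested genes. With 0.1 CPM added, 85 (50.3%) differed by 2-fold or more, near the 51.5% of all tested genes. In 47 members 1 DC library reached 0.5 of the lower SB value or more, and in 40 of these it was replicate 1. The DC mean was above the SB mean in 2 members, named after their values were seen. MDOA003925 had 55.6 and 56.6 CPM in SB and 129 and 24.8 CPM in DC. MDOA013431 had 11.4 and 12.6 CPM in SB and 50.8 and 2 CPM in DC. In both, replicate 1 alone lay above the SB libraries.

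Beside the other genes with the early drop, the 169 lay between the 57 and the 20 at the step that shares no library with the rule. Both GBE libraries lay above both gastrula libraries in 38 of the 57 genes with a high DC level (66.7%), and below in 0. In the 20 genes below 1 CPM in DC it was 3 (15%) above and 1 (5%) below. Of all tested genes 19.2% lay above and 8.57% below. The median gastrula level relative to the same-numbered SB library was 12.8% and 11.4% in the 57, 9.96% and 7.96% in the 169, and 1.4% and 1.14% in the 20. The groups are defined by DC and differ in size, and the differences between them were not tested. Replicate differences in GBE and DC correlated across genes (r = 0.57), so the GBE values may not be independent of the grouping.

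**Figure D4:**
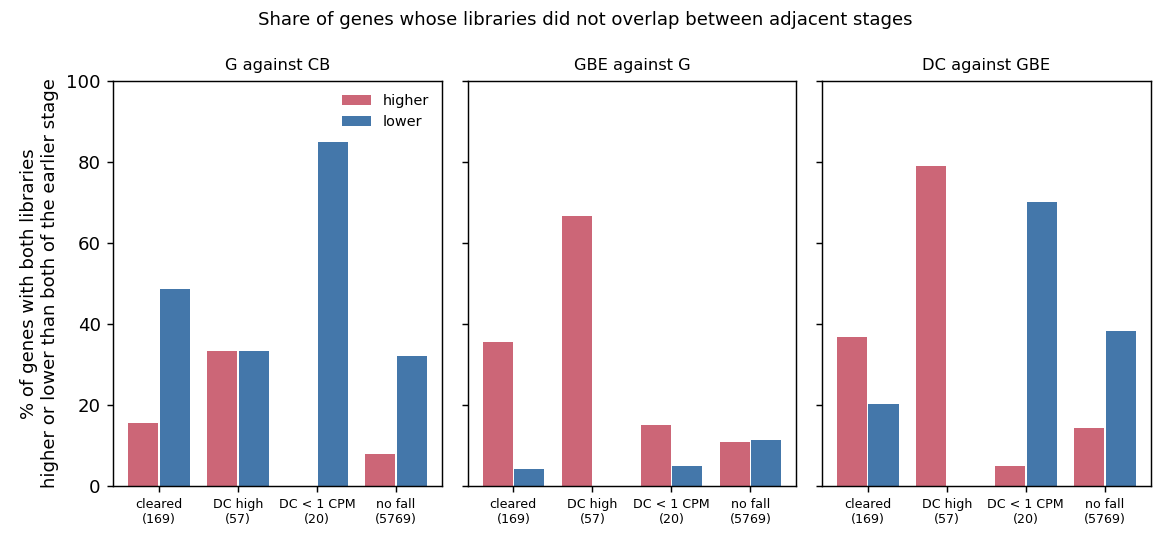
Percentage of genes with both libraries of a stage higher (red) or lower (blue) than both of the stage before, in CPM, for the 169 cleared transcripts, the 57 with a high and the 20 with a very low DC level, and the 5769 without the drop (no fall). For GBE against the gastrula, the step that shares no library with the rule, 35.5% of the 169 were higher and 4.14% lower.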

How the data were processed

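The authors deposited raw counts per gene, as whole numbers. STAR and HTSeq were used, per the submitters' processing notes; version, genome build, annotation and strand setting: not given in the sources used here. Overlapping, antisense and near-identical genes are therefore uncertain. The 5 closing entries that name no gene were left out (16.8% to 36.1% of all reads).

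Levels are CPM on gene reads. Tests used R 4.3.3 and edgeR 4.0.16. The filterByExpr filter left 11286 genes, among them all 169 members. All 169 also reached its CPM cutoff in 2 or more libraries after SB. TMM scaling was used, with a robust quasi-likelihood fit of 1 coefficient per stage to all 10 libraries (5 residual degrees of freedom). A gene was called at a Benjamini-Hochberg adjusted p under 0.05 over all tested genes. Standard errors divide the unshrunken change by the square root of F. Intervals cover counting error only. The edgeR test of GBE against the gastrula was also run on simulated counts that held no replicate effect. Its outcome is not given here.

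Replicate differences correlated across genes in all 10 pairs of stages (r from 0.32 to 0.61, above the level of 0.1 set for pairing). The main fit did not use this pairing. Its common coefficient of variation between libraries was 0.69, against 0.46 with the replicate block. Fitted changes, standard errors and calls are from the fit without the block unless the block is named. The blocked result stands beside those it changes. The labels do not say what a number shares. Without the block, p-values measure the spread between these pools, including any difference common to a replicate series.

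Named members were, per adjacent step, the 2 largest rises and 2 largest falls by fitted change with the same direction in both series, at least 5 CPM in the higher stage and 10 counts in the lower one, and the 2 highest in SB. From SB to CB this named falls only. Alternatives were DESeq2 (1.42.0) and its size factors, total counts, no filter, the replicate block, each library left out, and other limits in the rule. The members and lists were chosen with earlier results of these data known.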

Additional observations from a re-analysis of the deposited data

How the results depend on the processing

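The number of members was 87 with TMM-scaled CPM, 38 with a stricter CB limit, 626 with a limit of 0.5, and 129 to 430 with 1 library left out. From SB to CB the lower calls were 60 with total counts, 152 in DESeq2, 133 with the replicate block, 161 when block and total counts were joined (chosen after seeing the data), and 0 to 53 with 1 library left out. From CB to the gastrula DESeq2 called 5 higher and 25 lower, the replicate block 1 and 17, block plus total counts 1 and 22, no filter 3 lower, and leaving out 1 library 0 to 1 lower. From the gastrula to GBE DESeq2 called 1 higher. TMM-scaled CPM, chosen after seeing the data for this purpose, put both GBE libraries below in 12 members in place of 7. From GBE to DC the higher calls were 54 in DESeq2, 36 with the replicate block, 37 for block plus total counts, and 2 to 26 with 1 library left out. The lower calls were 7 with DESeq2's size factors, 22 with the block alone or joined to total counts, and 3 to 10 with 1 library left out. Against SB, block plus total counts called 165 lower in the gastrula and 158 in GBE, and leaving out 1 library gave 18 to 121 and 31 to 101. The cause of these shifts was not tested, and fewer libraries leave fewer degrees of freedom. Shares of all tested genes called were given for edgeR, the replicate block and DESeq2 only. For the other settings, here and above, whether all genes shifted alike was not tested.

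MDOA011525 had a log2 fold change from the gastrula to GBE of -0.60 to 3.02 with 1 library left out, negative without GBE replicate 2. The other named members kept their direction under each alternative. MDOA006552 and MDOA008702 lost their edgeR call from SB to CB without any 1 of the SB and CB libraries. With 1 library left out, their log2 fold changes lay between -8.31 and -5.95, and between -5.91 and -5.77. The rule uses this contrast and both were named for its size, so nothing is read from their calls. The replicate block changed no other call of a named member than those given above.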

Other observations

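In CB replicate 2 was the higher one in 125 of the 169 (74%), and in 45.4% of all tested genes. The rule used the SB, CB and DC libraries, so the replicate shares at these stages are not independent of it. In the gastrula replicate 2 was the higher one in 42 members (24.9%), against 38.2% of all tested genes. In GBE it was higher in 71 (42%), against 40.2%, and in DC in 37 (21.9%), against 37.7%. In SB it was higher in 72 (42.6%). With 0.1 CPM added, replicates were 2-fold or more apart for 30 members in CB (17.8%), against 33% of all tested genes, and for 40 in the gastrula (23.7%), against 30.4%. They were so for 54 in GBE (32%), against 48.1%, and for 85 in DC (50.3%), against 51.5%. Low counts touched few values. Fewer than 10 reads in a library were found in 14 members, and 1 (MDOA010074) had 0 reads in GBE replicate 2, where a count of 0 allows a level of up to 0.0569 CPM.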
